A study of Danio rerio with 17 samples.

Results

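The genes described here encode the proton pump that acidifies lysosomes, the cathepsin proteases that work inside them and the LAMP proteins of their membrane, measured in livers of transgenic zebrafish that were overfed and given Oligo-Fucoidan (OF). The list was chosen with earlier results of these data known, by a rule on names. A gene was taken if its symbol began with atp6v or lamp, or was cts followed by 1 letter, with any paralog suffix. This gave 41 of the 20908 genes that the array annotation pairs with at least 1 probe set of a single symbol. Of these, 9 encode subunits of the V0 sector of the pump, 12 subunits of its V1 sector, 15 cysteine cathepsins, 2 other cathepsins (ctsa and ctsd) and 3 LAMP proteins. All 41 were tested, since no filter on low values was used.

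Lysosomes are the acidic compartments in which cells break down proteins, lipids and sugars taken up from outside or delivered by autophagy. The vacuolar proton pump (V-ATPase) uses ATP in its cytosolic V1 sector to drive protons through its membrane-bound V0 sector, and cathepsins need the resulting low pH to mature and to cut their substrates. LAMP proteins coat the inner face of the lysosomal membrane. In the liver, both hepatocytes and resident macrophages are rich in lysosomes, and in mammals the transcription factor TFEB raises many of these genes together when nutrients are short.

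The 17 arrays came from livers of adult zebrafish of 6 months in 2 lines, which the study describes as female. HBx,src fish carried the hepatitis B virus X antigen and the kinase src as liver transgenes, and HBx,src,p53 fish carried both together with a mutant p53 allele, described as p53-/+ in the growth protocol. Both transgenes are driven by the fabp10a promoter, which is active in hepatocytes. NOR fish received 6.9 mg of Artemia cysts per fish per day, DIO fish (diet-induced obesity) received 83 mg, and DIO+OF fish received the DIO feed and OF, a low molecular weight fucoidan of brown seaweed, at 300 mg/kg by oral gavage 3 times a week for 1 month. NOR and DIO fish are labelled as mock or untreated, and no source used here says that DIO fish were gavaged, so OF and the gavage itself cannot be told apart. Each group had 3 arrays, except HBx,src,p53 NOR with 2, and no source used here says whether an array stands for 1 liver or a pool.

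The 2 lines are also the 2 batches named in the sample titles, which do not say what a batch was. Line and batch cannot be told apart, and levels were compared within a line only. Array medians were 2.095 to 2.212 in HBx,src and 2.552 to 2.684 in HBx,src,p53 on the log2 scale. The hepatocyte gene fabp10a was between 12.08 and 13.26 in all 17 arrays, while another of the 8 hepatocyte genes checked, ttr, moved with diet and OF in HBx,src,p53 as given below. One library stood apart: HBx,src,p53 DIO+OF replicate 3 had a log2 signal of 2.76 for the egg yolk gene vtg2, against 13.75 to 14.04 in the other 16 arrays, and of 5.90 for the oestrogen receptor gene esr1, against 9.76 to 10.82 in the rest of its line. Whether this array came from a female fish was not tested. Values for OF in HBx,src,p53 are given with and without this array where they rest on it. Levels below are deposited log2 signals, changes are log2 fold changes ± the standard error of a model fitted over all 17 arrays with limma, and adjusted p values are limma's, corrected by Benjamini-Hochberg over all 75212 probe sets. A gene was called at an adjusted p under 0.05.

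Few of the 41 genes passed this test, and those that did all fell. In HBx,src, 0 members were called for DIO against NOR, where 0% of all genes were called, and 0 for DIO+OF against DIO, where 0.732% were. In HBx,src,p53, atp6v0a2b and ctsa fell in DIO against NOR, 2 of 41 where 3% of all genes were called, and atp6v1g1 fell in DIO+OF against DIO, 1 of 41 where 2.35% were. At an unadjusted p under 0.05 the 4 counts were 1, 8, 11 and 9 of 41, or 2.44%, 19.5%, 26.8% and 22%, beside 7.56%, 16%, 19.1% and 19.3% of all genes. For OF the members' shares lay near those of all genes in both lines. With 1 array of the line left out, the 4 counts ran from 1 to 5, 4 to 8, 5 to 13 and 5 to 9.

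**Figure D1:**
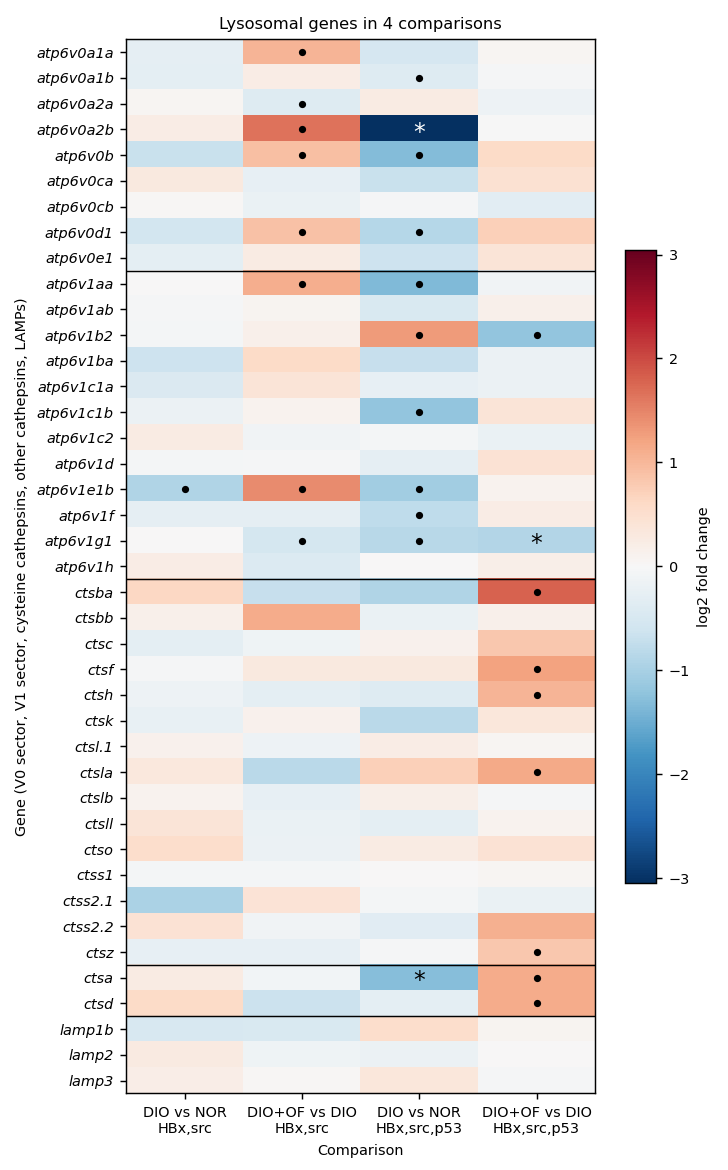
Heat map of the log2 fold changes of the 41 genes (vertical, grouped by class) in the 4 comparisons of diet and OF (horizontal), where an asterisk marks an adjusted p under 0.05 and a dot an unadjusted p under 0.05. Dots and negative values gather among the pump genes in the diet column of HBx,src,p53, and positive values among the cathepsins for OF in the same line.

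The first question was what overfeeding did to the pump genes in HBx,src,p53. Of the 21 V-ATPase genes, 18 had lower means in DIO than in NOR, with a median log2 fold change of -0.63 beside -0.01 over all genes. Over all genes 49.3% had higher means. Of the 21 pump genes only atp6v0a2b passed the test. The V0 and V1 sectors had like medians, -0.63 over 9 genes and -0.57 over 12. At an unadjusted p under 0.05 were 9 pump genes with lower and 1 with higher values. Of all 20908 genes, 2415 were lower and 1573 higher at that p, 19.1% together. In 12 of the 21 the DIO and NOR arrays did not overlap, while 39.1% of all genes were without overlap in this comparison of 3 against 2 arrays.

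The gene atp6v0a2b encodes an a subunit of V0, the part through which protons pass, and in mammals the a2 form is found on Golgi and endosomal membranes. Its log2 signal was 7.98 and 7.34 in the NOR arrays of HBx,src,p53, 3.82, 5.47 and 4.56 in DIO and 4.04, 4.62 and 5.17 in DIO+OF. Both NOR arrays lay above all 6 arrays of overfed fish. The gene fell by 3.04 ± 0.57 with the diet, an 8.23-fold lower signal (n = 3 and 2, adjusted p = 0.0148), and stayed at that level with OF, with a change of -0.01 from DIO. Its other 2 probe sets fell by 2.41 ± 0.45 (adjusted p = 0.0136) and 1.70 ± 0.39 (adjusted p = 0.0354). Where on the gene the probe sets lie was not examined. Without NOR replicate 1 or replicate 2 the change was -2.72 (adjusted p = 0.112) or -3.36 (adjusted p = 0.0506), so the call needs both NOR arrays.

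Among the V1 genes, atp6v1g1, a G subunit of the stalk that joins the sectors, had the smallest p for the diet in HBx,src,p53. The arrays were at 9.48 and 9.23 in NOR, 8.24, 8.64 and 8.67 in DIO and 7.84, 7.46 and 7.60 in DIO+OF. The 3 groups did not overlap. The difference between DIO and NOR was -0.84 ± 0.23 (n = 3 and 2, adjusted p = 0.0648), which did not pass the test.

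Other subunits with lower means in DIO, chosen after their values were seen, were the catalytic A subunit gene atp6v1aa, the V0 proteolipid gene atp6v0b and the stalk gene atp6v1e1b. For atp6v1aa the NOR arrays were at 7.25 and 7.61 and the DIO arrays at 6.28, 5.62 and 6.35, a difference of -1.35 ± 0.41 (n = 3 and 2, adjusted p = 0.0945). For atp6v0b the NOR arrays were at 8.32 and 8.57 and the DIO arrays at 6.93, 6.63 and 7.84, a difference of -1.31 ± 0.45 (n = 3 and 2, adjusted p = 0.143). The DIO and NOR arrays did not overlap for either gene. For atp6v1e1b the difference was -1.06 ± 0.35 (adjusted p = 0.127).

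The ATP-binding B subunit gene atp6v1b2 ran the other way. Its log2 signal was 3.02 and 2.43 in NOR, 3.53, 4.70 and 3.81 in DIO and 3.04, 2.57 and 2.81 in DIO+OF. The DIO arrays lay above all others of the line, with a difference from NOR of 1.29 ± 0.36 (n = 3 and 2, adjusted p = 0.0766) that did not pass the test. The paralog atp6v1ba was at -0.69 in the same comparison.

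**Figure D2:**
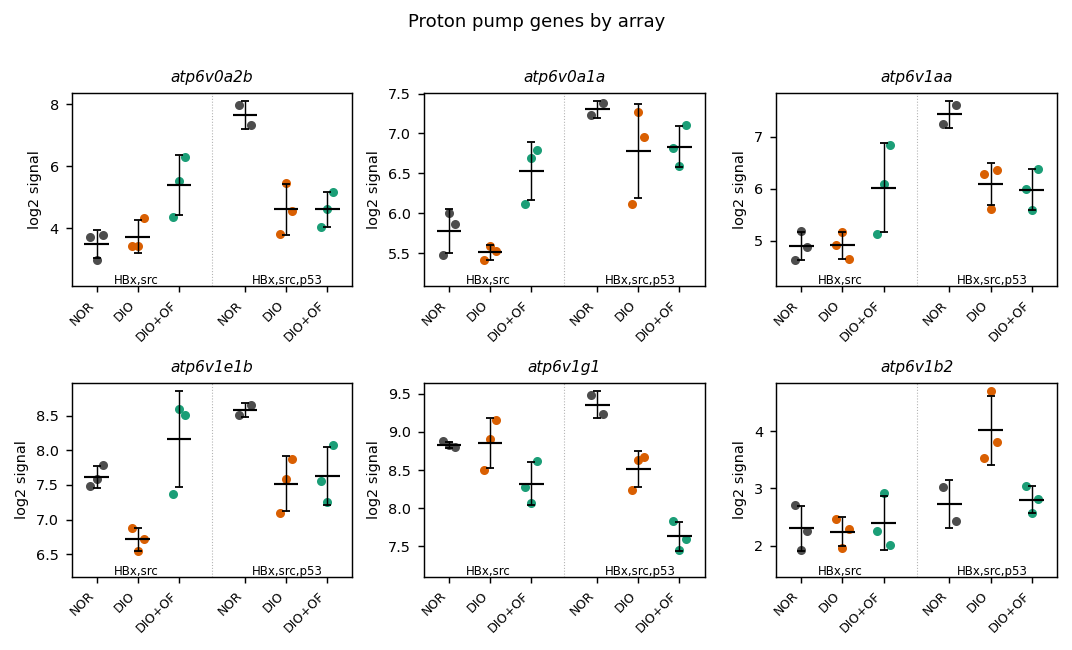
Log2 signal (vertical) of 6 proton pump genes in each array, by group (horizontal), with the 2 lines set apart by a dotted line, points for arrays, lines for group means and bars for the SD. In HBx,src,p53 both NOR arrays of atp6v0a2b (7.98 and 7.34) lie above all DIO and DIO+OF arrays, and atp6v1g1 steps down from NOR to DIO to DIO+OF.

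The size of the shift in the pump genes depended on the arrays and on the scaling. Over the 8 arrays of the line left out in turn, the median of the 21 genes ran from -0.76 to -0.44, with 16 to 19 genes lower, and quantile normalization gave -0.38 with 18 genes lower. The count at an unadjusted p under 0.05 was 4 without NOR replicate 2 against 10 with all arrays.

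The cathepsins scattered around 0 with the diet. Of 17 cathepsin genes in HBx,src,p53, 10 had lower and 7 higher means in DIO than in NOR, with a median of -0.07. Only ctsa passed the test. It encodes cathepsin A, a serine carboxypeptidase that also shields the lysosomal galactosidase and neuraminidase from degradation. Its log2 signal was 7.27 and 7.51 in NOR, 5.67, 6.06 and 6.54 in DIO and 7.08, 7.05 and 7.49 in DIO+OF, so the DIO arrays lay below all others of the line. It fell by 1.30 ± 0.30 with the diet, a 2.46-fold lower signal (n = 3 and 2, adjusted p = 0.0362). This call was lost without NOR replicate 1 (adjusted p = 0.12), NOR replicate 2 (0.212), DIO replicate 1 (0.106) or DIO replicate 2 (0.0783).

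The other members at the ends of the range for the diet in HBx,src,p53 were ctsba, a cathepsin B gene, at -0.91 (adjusted p = 0.711), and lamp1b at 0.54 (adjusted p = 0.638). The DIO arrays of ctsba lay between 3.52 and 6.74. Over the 8 arrays of the line left out in turn, the ctsba change ran from -1.45 to 0.16. The second probe set of ctsba gave 0.09. The 3 LAMP genes had a median of 0.35, and 0 of 3 were at an unadjusted p under 0.05. The study's methods used a looser threshold, 2-fold or more together with p below 0.05 before adjustment. By it 1 member was higher and 6 were lower, where 3.19% and 6.59% of all genes were.

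Means of genes of other cells also differed in this comparison. At an unadjusted p under 0.05 were 0 of 13 exocrine pancreas and 6 of 14 ovary genes, beside 19.1% of all genes. For red blood cell and macrophage genes these counts were 1 of 6 and 0 of 12. All 13 exocrine pancreas genes measured had higher means in DIO, with a median of 1.24 and 0 of 13 called; their summed signal was 11.68 and 13.16 on the log2 scale in NOR and 12.63, 13.99 and 14.25 in DIO. Of 14 ovary genes, 13 were higher (median 0.61) and zp2.5 rose by 3.08 ± 0.73 (adjusted p = 0.0394), with the summed signal at 6.23 and 7.05 in NOR and 6.45, 8.25 and 7.36 in DIO. The ovary genes were dim, with a median log2 signal of 2.125 and 2.246 in NOR and 2.161, 3.355 and 2.687 in DIO. Red blood cell genes had a median of -0.75, with summed signals of 9.80 and 10.03 in NOR and 8.08 to 9.33 in DIO, and the 12 macrophage genes one of -0.02. The zp2.5 call held in 3 of 8 arrays left out in turn (adjusted p up to 0.206) and was lost without either NOR array, DIO replicate 2 or 3 or DIO+OF replicate 1. Of the 8 hepatocyte genes (median 0.01, 4 higher), ttr, the gene of the plasma carrier transthyretin, fell by 0.92 ± 0.22 (adjusted p = 0.0437), a call kept in 2 of 8 arrays left out. The part of these cells in the values of the pump genes was not tested. In whole liver, fewer cells of a type and less RNA per cell cannot be told apart.

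The second question was what OF changed in overfed HBx,src,p53 fish. Here most cathepsins had higher means, and the pump genes scattered around 0. Of 17 cathepsin genes, 15 had higher means in DIO+OF than in DIO, with a median log2 fold change of 0.82 beside 0.04 over all genes, but 0 of 17 passed the test. Over all genes 53.9% had higher means. At an unadjusted p under 0.05 were 7 of the 17 cathepsins, all higher: ctsa, ctsd, ctsba, ctsf, ctsh, ctsla and ctsz. Of all 20908 genes, 2550 were higher and 1488 lower at that p, 19.3% together. In 9 of 17 the DIO+OF and DIO arrays did not overlap, where 24.2% of all genes were without overlap. At the methods' threshold 6 members were higher and 1 lower, where 5.48% and 2.47% of all genes were.

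The lowest adjusted p among cathepsins belonged to ctsa, which was 1.12 ± 0.27 higher in DIO+OF than in DIO (n = 3 and 3, adjusted p = 0.0555). Its DIO+OF arrays, 7.05 to 7.49, lay in the range of the NOR arrays or just below it, and the difference between DIO+OF and NOR was -0.18. Centring each array on its median (adjusted p = 0.049), 1-symbol probe sets (0.0343), gene means (0.0297) and leaving out DIO replicate 3 (0.0391) brought it past the threshold, and without the array low in vitellogenin the difference from DIO was 0.98 (adjusted p = 0.202).

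Among the cysteine cathepsins, ctsf, the gene of cathepsin F, had the smallest p. Its arrays were at 8.36 and 6.44 in NOR, 7.69, 7.64 and 7.78 in DIO and 8.90, 8.76 and 9.08 in DIO+OF. The DIO+OF arrays were above all others of the line and the NOR arrays were far apart. DIO+OF exceeded DIO by 1.21 ± 0.38 (n = 3 and 3, adjusted p = 0.142), and by 1.13 (adjusted p = 0.336) without the array low in vitellogenin. With either NOR array left out the adjusted p was under 0.05, at its lowest 0.0331.

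The remaining cathepsins given here were chosen after their values were seen. For ctsd, the gene of the aspartic protease cathepsin D, the DIO arrays were at 6.24, 6.89 and 6.95 and the DIO+OF arrays at 7.29, 7.89 and 8.29. The difference was 1.13 ± 0.35 (n = 3 and 3, adjusted p = 0.138), and the other 3 probe sets of the gene gave 0.75, 0.64 and 0.23. Without the array low in vitellogenin it was 0.90 (adjusted p = 0.391).

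For ctsba the DIO arrays were at 3.52, 6.70 and 6.74 and the DIO+OF arrays at 7.79, 7.12 and 7.44. DIO replicate 1 was far below every other array of the line for this gene. The difference of 1.80 ± 0.83 (n = 3 and 3, adjusted p = 0.332) came down to 0.73 without that array, and the second probe set of ctsba gave -0.47.

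Cathepsin H, an aminopeptidase, is encoded by ctsh, whose DIO arrays were at 5.74, 6.14 and 5.66 and DIO+OF arrays at 6.69, 6.52 and 7.42, a difference of 1.03 ± 0.40 (adjusted p = 0.234). The second probe set of ctsh gave 0.25 (adjusted p = 0.791). For ctsla, a cathepsin L gene, the difference was 1.15 ± 0.48 (adjusted p = 0.281), and its second probe set gave 0.11. For ctsz, the gene of the carboxypeptidase cathepsin Z, it was 0.82 ± 0.34 (adjusted p = 0.275). In each of the 3 genes the highest array was the one low in vitellogenin, and without it the differences were 0.76 for ctsh (adjusted p = 0.551), 0.72 for ctsla (0.648) and 0.53 for ctsz (0.635).

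**Figure D3:**
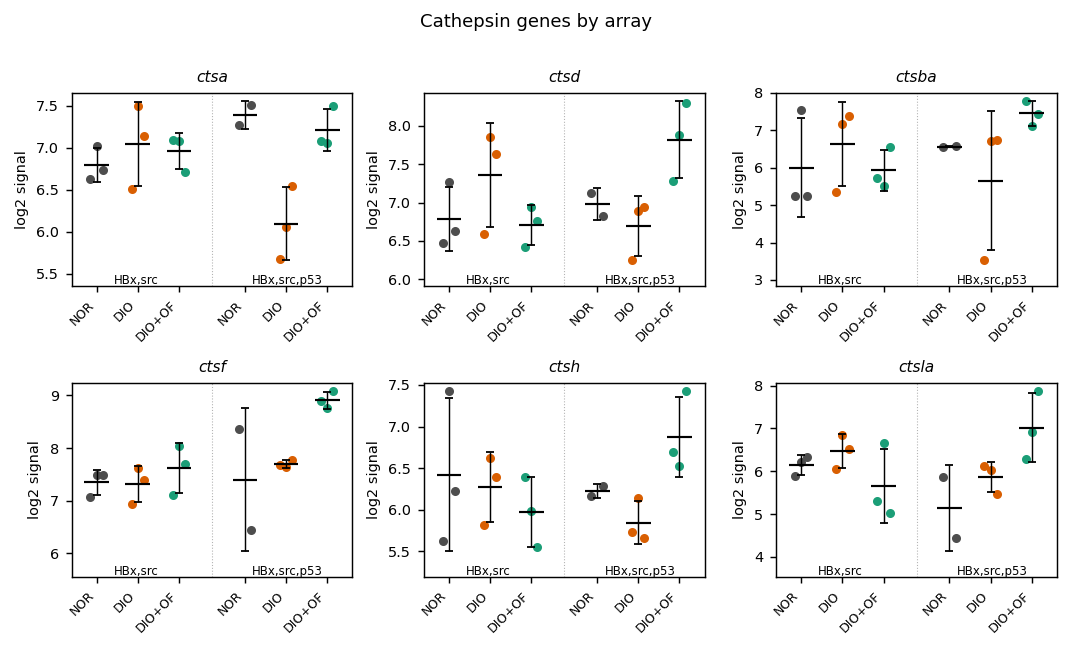
Log2 signal (vertical) of 6 cathepsin genes in each array, by group (horizontal), with the 2 lines set apart by a dotted line, points for arrays, lines for group means and bars for the SD. In HBx,src,p53 all DIO+OF arrays lie above all DIO arrays in each of the 6 panels. The 6 genes were taken from the 7 cathepsins at an unadjusted p under 0.05 in this comparison. Of all genes, 24.2% were without overlap in it. In HBx,src the groups overlap, and 0 of 41 members were called for a difference in OF response between the lines.

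The difference was smaller without 1 array. Without HBx,src,p53 DIO+OF replicate 3 the cathepsin median for OF was 0.52 with 14 of 17 genes higher and 3 at an unadjusted p under 0.05, and over all 8 arrays left out in turn it ran from 0.52 to 0.97. The pump median was 0.05 with that array, 11 of 21 genes higher, and -0.11 without it, 15 of 21 lower.

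In the same comparison the V1 gene atp6v1g1 fell, by 0.88 ± 0.21 from DIO to DIO+OF, a 1.85-fold lower signal (n = 3 and 3, adjusted p = 0.0481). The call lies at the threshold: it was lost in 19 of 26 alternatives, and of the 8 arrays of the line left out in turn it was kept only without DIO replicate 1 (adjusted p = 0.0447, otherwise 0.0532 to 0.147). Without the array low in vitellogenin the change was -0.87 (adjusted p = 0.147). The dim B subunit gene atp6v1b2, higher in DIO, was 1.21 ± 0.33 lower in DIO+OF (n = 3 and 3, adjusted p = 0.0887). Its second probe set gave -0.10. For V0, the widest difference was that of atp6v0d1, 0.72 (adjusted p = 0.387, and 0.51 without that array). The LAMP genes lay between -0.04 and 0.08.

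Macrophage genes were higher in the same arrays. Of 12 measured, 10 had higher means in DIO+OF than in DIO, with a median of 0.88 and 0 called, and the median was 0.54 without the array low in vitellogenin. The log2 of their summed signal was 9.55 and 10.15 in NOR, 9.45, 9.51 and 10.03 in DIO and 10.97, 10.84 and 10.44 in DIO+OF, with no overlap between DIO and DIO+OF. All 6 red blood cell genes were higher as well, with a median of 0.79 and of 0.22 without that array, and the 14 ovary genes had a median of -0.81 with 1 higher. Among them zp2.5 fell by 3.04 ± 0.65 (adjusted p = 0.0345) and gdf9 by 0.83 ± 0.19 (adjusted p = 0.0496), calls kept in 3 and 2 of 8 arrays left out and lost without the array low in vitellogenin (-2.94, adjusted p = 0.123, and -0.76, adjusted p = 0.171). Of the 13 exocrine pancreas genes 1 was higher (median -0.93, and -0.03 with 6 higher without that array). The 8 hepatocyte genes had a median of 0.37 with 6 higher, and of 0.17 without that array, and ttr rose by 0.98 ± 0.20 (adjusted p = 0.0289, and 0.111 without that array). In HBx,src the macrophage genes also had higher means with OF, 11 of 12 with a median of 0.41, while 13 of 17 cathepsins had lower ones. With 1 array of HBx,src left out, the macrophage median ran from 0.03 to 0.84 with 6 to 11 genes higher, and 10 to 13 cathepsins were lower. The summed macrophage signals overlapped in HBx,src, at 9.08, 9.92 and 9.84 in DIO and 10.93, 10.69 and 9.54 in DIO+OF. The part of macrophages and of the other cells in the cathepsin values was not tested.

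**Figure D4:**
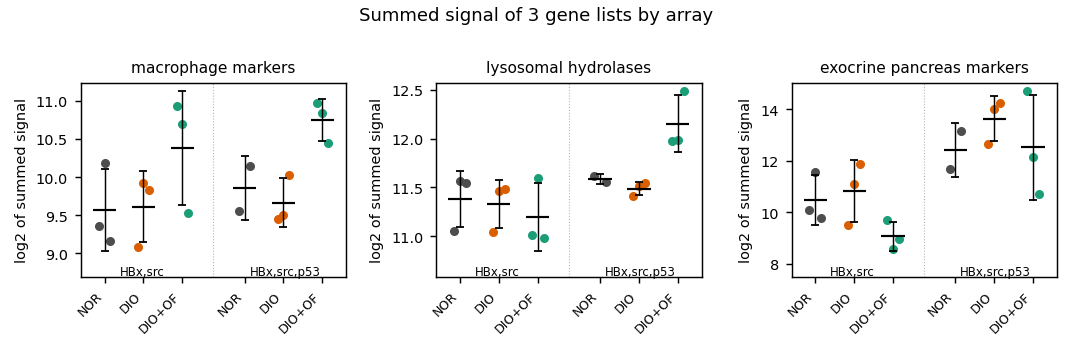
Log2 of the summed signal (vertical) of 12 macrophage genes, 48 lysosomal hydrolase genes and 13 exocrine pancreas genes in each array, by group (horizontal), with points for arrays, lines for group means and bars for the SD. In HBx,src,p53 the macrophage and hydrolase sums of DIO+OF lie above those of DIO, and the exocrine pancreas sums range widely within each group.

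Set against NOR, the DIO+OF fish of HBx,src,p53 show the sum of diet and OF; this comparison shares its arrays with the 2 just given. Again 2 members fell, atp6v0a2b and atp6v1g1, where 6.3% of all genes were called. The change of atp6v0a2b was -3.05 ± 0.57 (n = 3 and 2, adjusted p = 0.0114, and 0.0880 or 0.0522 without NOR replicate 1 or 2). For atp6v1g1 it was -1.73 ± 0.23, a 3.31-fold lower signal (n = 3 and 2, adjusted p = 0.00229). This was the one call that held in all 26 alternatives tried, with adjusted p values from 0.000871 to 0.0189. Of the 21 pump genes 17 had lower means (median -0.43), and of the 17 cathepsins 12 had higher means (median 0.65, and 0.38 without the array low in vitellogenin). Over all genes 52.6% had higher means.

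In HBx,src fish the values of the 41 genes in DIO scattered around those in NOR. The median log2 fold change was -0.03 over all members, -0.06 over the pump genes, 0.13 over the cathepsins and 0.19 over the LAMP genes. At the methods' threshold 0 members were higher and 0 lower, where 0.45% and 1.89% of all genes were. The 1 member at an unadjusted p under 0.05 was atp6v1e1b, an E subunit of the V1 stalk. Its log2 signal was 7.48, 7.58 and 7.79 in NOR and 6.87, 6.54 and 6.72 in DIO. The DIO arrays were all below the NOR arrays, with a difference of -0.90 ± 0.31 (n = 3 and 3, adjusted p = 0.665). Of all genes, 13.6% were without overlap in this comparison. Ends of the range in the other classes were atp6v0b at -0.69, ctss2.1 at -0.96, ctsd at 0.57 and lamp1b at -0.48.

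With OF, HBx,src fish had higher means for some pump genes and lower ones for most cathepsins, and 0 of 41 members passed the test. At an unadjusted p under 0.05 were 8 pump genes, 6 higher and 2 lower, and 0 of 17 cathepsins. Of all 20908 genes, 2076 were higher and 1264 lower at that p, 16% together. The medians were 0.15 over the pump genes, -0.17 over the cathepsins and -0.13 over the LAMP genes. With 1 array of the line left out, the pump median ran from 0.02 to 0.305 and the cathepsin median from -0.33 to -0.01. The LAMP median ran from -0.24 to -0.02. At the methods' threshold were 4 members with higher and 0 with lower values, where 5.51% and 2.14% of all genes were. The DIO+OF and DIO arrays did not overlap in 7 of 21 pump genes, 1 of 17 cathepsins and 0 of 3 LAMP genes. Of all genes, 18.2% were without overlap in this comparison.

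The smallest p belonged to atp6v1e1b. Its DIO+OF arrays were at 7.37, 8.61 and 8.52, all above the DIO arrays of 6.54 to 6.87, a difference of 1.45 ± 0.31 (n = 3 and 3, adjusted p = 0.0628). DIO+OF replicate 1 was the lowest of its group for this gene, and without it the difference was 1.85 (adjusted p = 0.00464), past the threshold. This was the 1 call over the 9 arrays of the line left out in turn. Over them the difference ran from 1.23 to 1.85, with adjusted p up to 0.237.

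The next was atp6v0a1a, an a subunit of V0. Its log2 signal was 5.48, 6.00 and 5.87 in NOR, 5.41, 5.59 and 5.54 in DIO and 6.12, 6.70 and 6.79 in DIO+OF. The DIO+OF arrays were above all others of the line, by 1.02 ± 0.27 over DIO (n = 3 and 3, adjusted p = 0.124), but its second, dimmer probe set gave -0.31.

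Of the other 3 V0 a subunit genes, atp6v0a2b had log2 signals of 3.73, 2.96 and 3.79 in NOR, 3.42, 3.42 and 4.34 in DIO and 4.36, 5.51 and 6.29 in DIO+OF. The difference between DIO+OF and DIO was 1.66 ± 0.51 (n = 3 and 3, adjusted p = 0.183). Its DIO+OF arrays were again above all others, the lowest of them only just above the highest DIO array. The other 2 probe sets of atp6v0a2b gave 1.25 (adjusted p = 0.202) and 0.32 (adjusted p = 0.82). In both of these the DIO+OF and DIO arrays overlapped. The dim paralog atp6v0a2a went the other way, at 1.97, 2.02 and 2.24 in DIO and 1.73, 1.59 and 1.77 in DIO+OF, a difference of -0.38 ± 0.17 (n = 3 and 3, adjusted p = 0.409). The change of atp6v1g1, called in the other line, was -0.53 ± 0.21 (adjusted p = 0.31).

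The upper end among the cathepsins was ctsbb at 1.13, which rested on DIO+OF replicate 3, at 6.09 where the remaining 8 arrays of HBx,src were at 1.92 to 2.90; without it the difference was -0.17. The exocrine pancreas genes had lower means with OF in this line, 0 of 13 higher with a median of -1.19, and their part in the values above was not tested. Set against NOR, 0 members were called in DIO+OF of HBx,src, where 0.191% of all genes were.

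**Figure D5:**
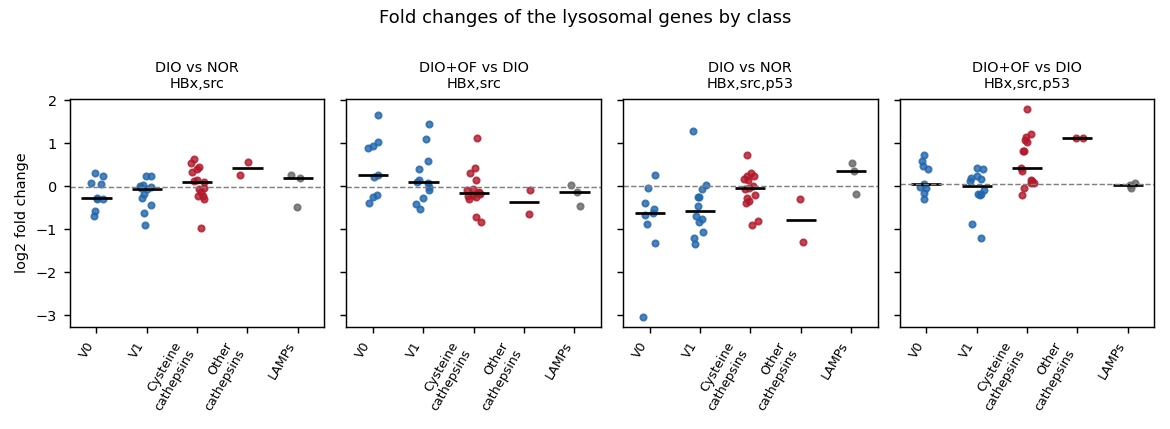
Log2 fold changes (vertical) of the V0, V1, cysteine cathepsin, other cathepsin and LAMP genes (horizontal), 1 point per gene, in each of the 4 comparisons, with a black line at the median of the class and a dashed line at the median of all genes. The V0 and V1 medians are -0.63 and -0.57 under overfeeding in HBx,src,p53, and the cysteine cathepsin median is 0.43 for OF in that line, with ctsa and ctsd above it.

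Whether the lines responded differently was tested as a difference of their fold changes, HBx,src,p53 minus HBx,src. The interquartile range of an array was 1.798 to 2.028 in HBx,src and 2.888 to 3.336 in HBx,src,p53. Fold changes of the 2 lines may therefore not be on the same scale. For the diet, 0 of 41 members were called, where 0.0622% of all genes were, and 5 (12.2%) were at an unadjusted p under 0.05 beside 10.5% of all genes. The widest difference was that of atp6v0a2b, -3.27 ± 0.76 (adjusted p = 0.128). Of 21 pump genes 18 had differences below 0 (median -0.31), while 50.4% of all genes had differences above 0. For OF, 0 of 41 were called, where 1.3% of all genes were, and 10 (24.4%) were at an unadjusted p under 0.05 beside 18.2% of all genes. Here 15 of 17 cathepsins had differences above 0 (median 0.91), beside 52.5% of all genes. The lowest adjusted p among the cathepsins, 0.123, was that of ctsd at 1.78. Without the array low in vitellogenin the median was 0.65 and the ctsd difference 1.55 (adjusted p = 0.243). So the opposite signs of the cathepsin values with OF in the 2 lines were not shown to differ gene by gene.

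The other lysosomal genes were taken from 7 lists. Of 48 lysosomal hydrolases measured, 43 had higher means with OF in HBx,src,p53 (median 0.61), 21 were at an unadjusted p under 0.05, and 3 rose and 1 fell. Over all genes 53.9% had higher means, 19.3% were at that unadjusted p and 2.35% were called. The hydrolase genes that rose were fuca2, a fucosidase, by 1.47 ± 0.29 (adjusted p = 0.0231), ggh, which trims the tails of folates, by 1.68 ± 0.33 (adjusted p = 0.024), and man2b2, an alpha-mannosidase, by 1.30 ± 0.26 (adjusted p = 0.0286). The phosphatase gene acp5a fell by 1.74 ± 0.35 (adjusted p = 0.027), after a rise of 1.76 ± 0.39 with the diet (adjusted p = 0.0323). Without the array low in vitellogenin 0 of 48 and 146 of all 20908 genes were called and 40 of the 48 had higher means (median 0.38), and without DIO replicate 1 fuca2, ggh and man2b2 were not called either (adjusted p up to 0.0982, 0.103 and 0.111 over the arrays left out). In HBx,src the same list had a median of -0.15 with OF, and 0 were called.

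Of 13 cystatins and other cathepsin inhibitors, cst3, the gene of cystatin C, rose with OF in HBx,src,p53 by 1.18 ± 0.26 (adjusted p = 0.0388). Of 29 lysosomal membrane and transport genes, scarb2a, related to the receptor that carries glucocerebrosidase to lysosomes, rose with OF in HBx,src by 2.04 ± 0.31 (adjusted p = 0.0226). The other 12 and 28 genes of these lists were not called in those comparisons, in which 2.35% and 0.732% of all genes were. Without the array low in vitellogenin the change of cst3 was 0.95 (adjusted p = 0.156).

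With the diet in HBx,src,p53, where 3% of all genes were called, 1 of 12 accessory and other pump genes fell, atp6ap1b, an accessory subunit of the V-ATPase, by 1.25 ± 0.29 (adjusted p = 0.0359). Among 32 genes of sorting to lysosomes, m6pr, the cation-dependent mannose 6-phosphate receptor that delivers hydrolases, fell by 1.57 ± 0.32 (adjusted p = 0.0217), and 8 of the 32 had higher means in DIO (median -0.43). Of 44 autophagy genes 3 rose and 0 fell. They were the kinase gene ulk1a, by 3.34 ± 0.83 (adjusted p = 0.047), atg9a, a membrane protein of forming autophagosomes, by 1.72 ± 0.31 (adjusted p = 0.0128), and the cargo receptor gene nbr1a, by 1.13 ± 0.18 (adjusted p = 0.00786).

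Of 35 genes of TFEB and mTORC1 signalling, sesn1, which restrains mTORC1, rose with the diet in HBx,src,p53 by 2.83 ± 0.46 (adjusted p = 0.00759). The other 34 were not called there, where 3% of all genes were. The folliculin partner fnip1 fell with OF in HBx,src by 1.28 ± 0.22 (adjusted p = 0.0272). Again the other 34 were not called, where 0.732% of all genes were. The gene tfeb itself was 0.74 ± 0.23 higher with OF in HBx,src,p53 (adjusted p = 0.143), and 0.45 higher (adjusted p = 0.417) without the array low in vitellogenin. Its signal was low, at 1.825 to 2.066 in DIO and 2.366 to 3.268 in DIO+OF. The related gene tfe3a was brighter and went the other way, from 7.62 to 9.2 in DIO and from 6.71 to 7.31 in DIO+OF. Of all genes, 24.2% were without overlap between DIO and DIO+OF in this line. For tfe3b the arrays overlapped, at 5.16 to 6.20 in DIO and 5.85 to 6.41 in DIO+OF. Every call in these lists was lost when at least 1 array of its own line was left out. For nbr1a this was only NOR replicate 2 (adjusted p = 0.0737), and for atg9a and sesn1 only NOR replicate 1 (0.108 and 0.0647). The calls of m6pr and atp6ap1b needed both NOR arrays. That of m6pr was also lost without DIO replicate 1 or 2, and that of atp6ap1b without DIO replicate 1 or 3. Over the arrays left out the changes ran from -1.89 to -1.37 for m6pr and from -1.45 to -1.04 for atp6ap1b. The calls of ulk1a and cst3 were kept in 1 of 8 and 2 of 8 (adjusted p up to 0.156 for cst3). Those of scarb2a and fnip1 were lost without DIO replicate 2 or 3 or without DIO+OF replicate 2 or 3 (up to 0.0688 and 0.114).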

How the data were processed

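Livers were profiled on ZebGene 1.1 ST arrays scanned on a GeneTitan instrument. The values deposited by the authors are on the log2 scale, 1 for each probe set in each array, and the submitters' notes name Transcriptome Analysis Console. Its version, the normalization and the build of the genome were not given in the sources used here. Groups of 2 or 3 arrays limit the precision, and p-values measure the spread between these samples, which may be technical. The table held 75212 probe sets, of which 30358 were paired with 1 gene symbol, 1015 with several and 43839 were not listed in the annotation. A check of the symbols against gene identifiers, possible for 27940 probe sets, changed 1.

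A gene was represented by its probe set with the highest mean over the 17 arrays. Of the 41 members 14 had more than 1 probe set, and 8 had means below the median of all probe sets. Members, contrasts and gene lists were chosen with earlier results of these data known. Following the empirical Bayes test of the study's methods, all arrays entered 1 linear model with a mean for each group (limma 3.58.1 in R 4.3.3, residual df 11, prior df 2.67), which was also tested on simulated data. Comparisons that share a group share its arrays. Medians over members or lists are descriptions.

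Named were the members called in any comparison, the member with the smallest unadjusted p of each class and comparison if under 0.05 (otherwise the end of the range), and up to 4 called genes per list. The markers of other cell types and the array low in vitellogenin were treated as values beside the results. Alternatives were the scaling, the filter, the prior, array weights, the probe set rule, the block and leaving out each array. Figures used Python 3.11.15, pandas 2.3.3, numpy 2.4.6 and matplotlib 3.10.9. Promoter and protein sequences were not analysed here.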

Additional observations from a re-analysis of the deposited data

How the results depend on the processing

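The changes of atp6v0a2b, ctsa and atp6v1g1 kept their sign in every alternative tried for the comparisons in which they were called, but the calls did not all hold. For the diet in HBx,src,p53, where 2 members were called, the fit of the line alone, quantile normalization and the trended and robust prior each gave 1, and leaving out 1 array gave 0 to 4, with 0 without either NOR array of the line. The median of the members was -0.29 and became -0.11 after quantile normalization, with -0.44 to -0.19 over the arrays left out. For OF in HBx,src, where 0 were called, quantile normalization, leaving out the dimmest 40% of probe sets (36 members remained), probe sets with 1 symbol only, array weights and means over the probe sets of a gene each gave 1, which was atp6v1e1b, and leaving out 1 array gave 0 to 4. For OF in HBx,src,p53, where 1 was called, the line alone, the filter on dim probe sets, the trended prior and array weights gave 0, probe sets with 1 symbol and gene means gave 2, and arrays left out 0 to 2, while centring each array on its median kept the count at 1 with ctsa (adjusted p = 0.049) in place of atp6v1g1 (0.0759). DIO+OF against NOR gave 0 to 2 in HBx,src, and in HBx,src,p53, where 2 were called, 5 with 1-symbol probe sets, 4 with gene means and 1 to 3 over arrays left out. The difference of OF between the lines gave 0 to 1 and that of the diet 0 to 0, as did the diet in HBx,src. HBx,src DIO+OF replicate 1 gave the highest counts: without it the counts were 4 for the diet in HBx,src,p53, 4 for OF in HBx,src and 2 for DIO+OF against NOR in HBx,src, and for OF atp6v1e1b differed between the lines by -1.73 (adjusted p = 0.0247). Arrays of the other line change these counts only through the shared spread; they and the class medians under alternatives were added after seeing the data. Medians over arrays left out ran from -0.13 to 0.12 for the diet in HBx,src, from -0.24 to 0.03 for OF in HBx,src and from -0.003 to 0.28 for OF in HBx,src,p53. The cause of these changes was not tested. With the group mean of each probe set subtracted, same-numbered arrays of different groups in a line had correlations of -0.08 to 0.10 over 16 pairs. Of these correlations of deviations 0 were over 0.1. Differently numbered arrays were not compared and groups had 2 or 3 arrays, so these values cannot settle whether the numbers pair the arrays. With the replicate number as a replicate block the diet in HBx,src,p53 gave 2 called members (median -0.38) and 1 for OF in that line, which was ctsa (adjusted p = 0.0492) in place of atp6v1g1 (adjusted p = 0.0961).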
